A study of Mus musculus with 2 samples.

Results

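The proteasome is the large protease that degrades proteins tagged with ubiquitin, and its genes carry names that start with Psm. The genes described here are the 50 genes with a protein-coding transcript whose name starts with Psma, Psmb, Psmc, Psmd, Psme, Psmf or Psmg, out of 55450 mouse genes and 21901 protein-coding genes in the table used. They were chosen by name alone, without names that end in -ps, which mark pseudogenes, and 49 of them encode subunits, regulators or assembly factors of the proteasome. The remaining gene, Psmc3ip, encodes a partner protein of the ATPase Psmc3 that acts in meiotic recombination, and it was kept because the name rule includes it.

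Polyadenylated RNA was sequenced with paired ends in G1E-ER4 cells, a mouse erythroid cell line derived from Gata1-null cells. GATA1 function is restored in it through a fusion protein that estradiol activates, and the whole study held 1 group of such cells, exposed to 10 nM 17beta-estradiol over 24 h. The group had 2 libraries, labelled replicates 1 and 2. Both come from 1 biosample record, nothing in the labels says that they are separate cultures, and no untreated or parental sample was given, so the values are levels in induced cells and the spread between the libraries may be technical. The expected counts over all genes summed to 71485619 in replicate 1 and 14121747 in replicate 2, so replicate 1 was 5.06 times deeper. All 8 erythroid markers checked were detected, and none of the 16 markers of monocytes, lymphocytes, mast cells, stroma, thymic epithelium or germ cells was. Of the 8, Gata1 was at 2890 and 2661 TPM, in a table that does not tell fusion and endogenous transcripts apart. Because the line carries a GATA1 fusion, detection of Gata1 is no sign of cell type.

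The 20S core of the proteasome is a barrel of 4 stacked rings. The outer rings are built of alpha subunits, which form the gate, and the inner rings of beta subunits, of which beta1, beta2 and beta5 carry the proteolytic sites. The 19S regulator caps the barrel: its base holds the ring of ATPases that unfold substrates, and its lid removes ubiquitin. In cells exposed to interferon the catalytic subunits Psmb6, Psmb7 and Psmb5 can be replaced by Psmb9, Psmb10 and Psmb8, which gives the immunoproteasome. Red cell precursors remove most of their proteins while they mature, and the ubiquitin and proteasome system takes part in that removal. Levels below are in TPM, a transcript abundance scaled by length to a fixed total per library, which can be compared between genes. Genes that reached 1 TPM in each of the libraries are called detected. In RNA from a whole culture, fewer expressing cells and less RNA per cell cannot be told apart.

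The promoter sequences of 5 catalytic beta genes are shown because these genes encode the alternative subunits of the same sites, whose levels are compared below. They are RefSeq windows on GRCm38.p6, from 250 bases before to 50 bases after the start of transcription, given 5′ to 3′ on the strand of the gene. Capitals mark matches to any of the short motifs searched. Psmb8 (chr17:34197945-34198244, plus strand), Psmb9 (chr17:34187281-34187580, minus strand) and Psmb10 (chr8:105938343-105938642, minus strand) are the immunoproteasome genes, and Psmb6 (chr11:70525107-70525406, plus strand) and Psmb5 (chr14:54617946-54618245, minus strand) the constitutive ones.
Psmb8: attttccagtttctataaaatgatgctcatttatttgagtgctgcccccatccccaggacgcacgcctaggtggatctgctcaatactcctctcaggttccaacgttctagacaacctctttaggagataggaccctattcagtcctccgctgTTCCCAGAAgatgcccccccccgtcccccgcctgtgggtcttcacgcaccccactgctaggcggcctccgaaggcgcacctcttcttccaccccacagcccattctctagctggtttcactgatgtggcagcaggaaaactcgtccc
Psmb9: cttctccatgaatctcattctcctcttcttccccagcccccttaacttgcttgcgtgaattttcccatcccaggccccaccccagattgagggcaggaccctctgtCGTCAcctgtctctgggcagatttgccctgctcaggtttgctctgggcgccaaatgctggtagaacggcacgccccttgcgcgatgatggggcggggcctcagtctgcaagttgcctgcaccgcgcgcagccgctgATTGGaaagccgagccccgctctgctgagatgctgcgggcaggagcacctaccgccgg
Psmb10: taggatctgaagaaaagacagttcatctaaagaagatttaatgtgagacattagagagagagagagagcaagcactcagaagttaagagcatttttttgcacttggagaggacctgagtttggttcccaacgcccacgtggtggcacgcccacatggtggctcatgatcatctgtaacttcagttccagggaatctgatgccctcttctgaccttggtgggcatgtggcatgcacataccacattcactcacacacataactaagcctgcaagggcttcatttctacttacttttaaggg
Psmb6: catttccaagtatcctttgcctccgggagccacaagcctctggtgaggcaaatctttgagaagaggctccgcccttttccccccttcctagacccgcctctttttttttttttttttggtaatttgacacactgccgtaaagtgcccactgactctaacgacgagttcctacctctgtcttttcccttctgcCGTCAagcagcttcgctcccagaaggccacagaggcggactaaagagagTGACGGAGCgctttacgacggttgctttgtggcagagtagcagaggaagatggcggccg
Psmb5: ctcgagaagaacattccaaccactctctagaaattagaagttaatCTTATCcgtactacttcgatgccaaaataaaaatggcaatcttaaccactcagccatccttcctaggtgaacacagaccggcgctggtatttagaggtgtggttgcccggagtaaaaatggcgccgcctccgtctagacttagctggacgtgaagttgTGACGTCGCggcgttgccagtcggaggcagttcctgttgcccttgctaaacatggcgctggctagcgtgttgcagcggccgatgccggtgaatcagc

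The Psmb6 and Psmb5 windows both held TGACNNNGC, the form of element bound by NFE2L1, a factor known to raise proteasome genes when proteasome activity falls. The match was TGACGGAGC in Psmb6, from base -9, and TGACGTCGC in Psmb5, from base -47, counted from the start of transcription. None of the 3 immunoproteasome windows held these letters. The Psmb8 window held TTCNNNGAA, a form known from interferon-gamma response elements, as TTCCCAGAA from base -97. Psmb6 also held TGACG on the minus strand, from base -58. The Psmb9 window held CCAAT on the minus strand, from base -8, and the shorter TGACG, the half-site of the cAMP response element, on the minus strand from base -144. The Psmb10 window held none of the 7 motifs. It had 3 CpG dinucleotides, against 11 in Psmb8, 17 in Psmb9, 15 in Psmb6 and 20 in Psmb5. The nearest M21 coding transcript started at base -405 from the RefSeq start in Psmb8, outside the window shown, 52 bases upstream in Psmb10 and 13 bases upstream in Psmb5, and 29 bases downstream in Psmb6 and 111 bases downstream in Psmb9. GATAAG, the form bound by GATA factors, was found in Psmb5, on the minus strand from base -205.

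Over the 42 genes of the family with a promoter in the RefSeq table, the median window had 19 CpG dinucleotides, against 7 over all 27025 promoters of the table and 23 over the 5844 promoters of protein-coding genes detected here. Each motif was searched on both strands, and the first 5 bases of TGACNNNGC can also match TGACG. TGACNNNGC was in 6 of 42 family promoters (14.3%), against 12.4% of all promoters and 15.0% of those of detected genes. TGACG was in 42.9% of the family, against 20.7% and 35.8%. CCGGAAG, a form bound by ETS factors, was in 14 of 42 (33.3%), against 9.08% of all and 23.2% of detected genes. CCAAT was in 35.7%, against 37.8% and 40.1%. GATAAG was in 3 of 42 (7.14%), against 7.49% and 4.72%. The interferon-response form GAAANNGAA was in 14.3%, against 8.56% and 6.59%, and the interferon-gamma form TTCNNNGAA in 7.14%, against 8.37% and 6.43%. These are matches of letters and no sites, and the family's median CpG count lay nearer that of detected genes than that of all promoters.

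Of the 50 genes, 35 were detected in both libraries (70%), against 33.3% of all protein-coding genes. Counted by library, 45 genes reached 1 TPM in replicate 1 and 35 in replicate 2. Over all 50 genes the median level was 26.0 TPM in replicate 1 and 5.71 TPM in replicate 2, and over all protein-coding genes it was 0.01 and 0.02 TPM. Among detected genes only, the family had medians of 42.5 and 18.4 TPM, against 20.2 and 15.3 TPM for all detected protein-coding genes. The family held 0.311% of expected counts in replicate 1 and 0.154% in replicate 2. Their summed level was 2733 and 1394 TPM, and 11 genes in replicate 1 and 3 in replicate 2 reached 100 TPM. Of all 21901 protein-coding genes, 1133 and 1122 did, so the 3 of 50 in replicate 2 lay near the share of all genes. The genes undetected in the sense used here were 15, of which 10 passed 1 TPM in replicate 1 only.

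**Figure D1:**
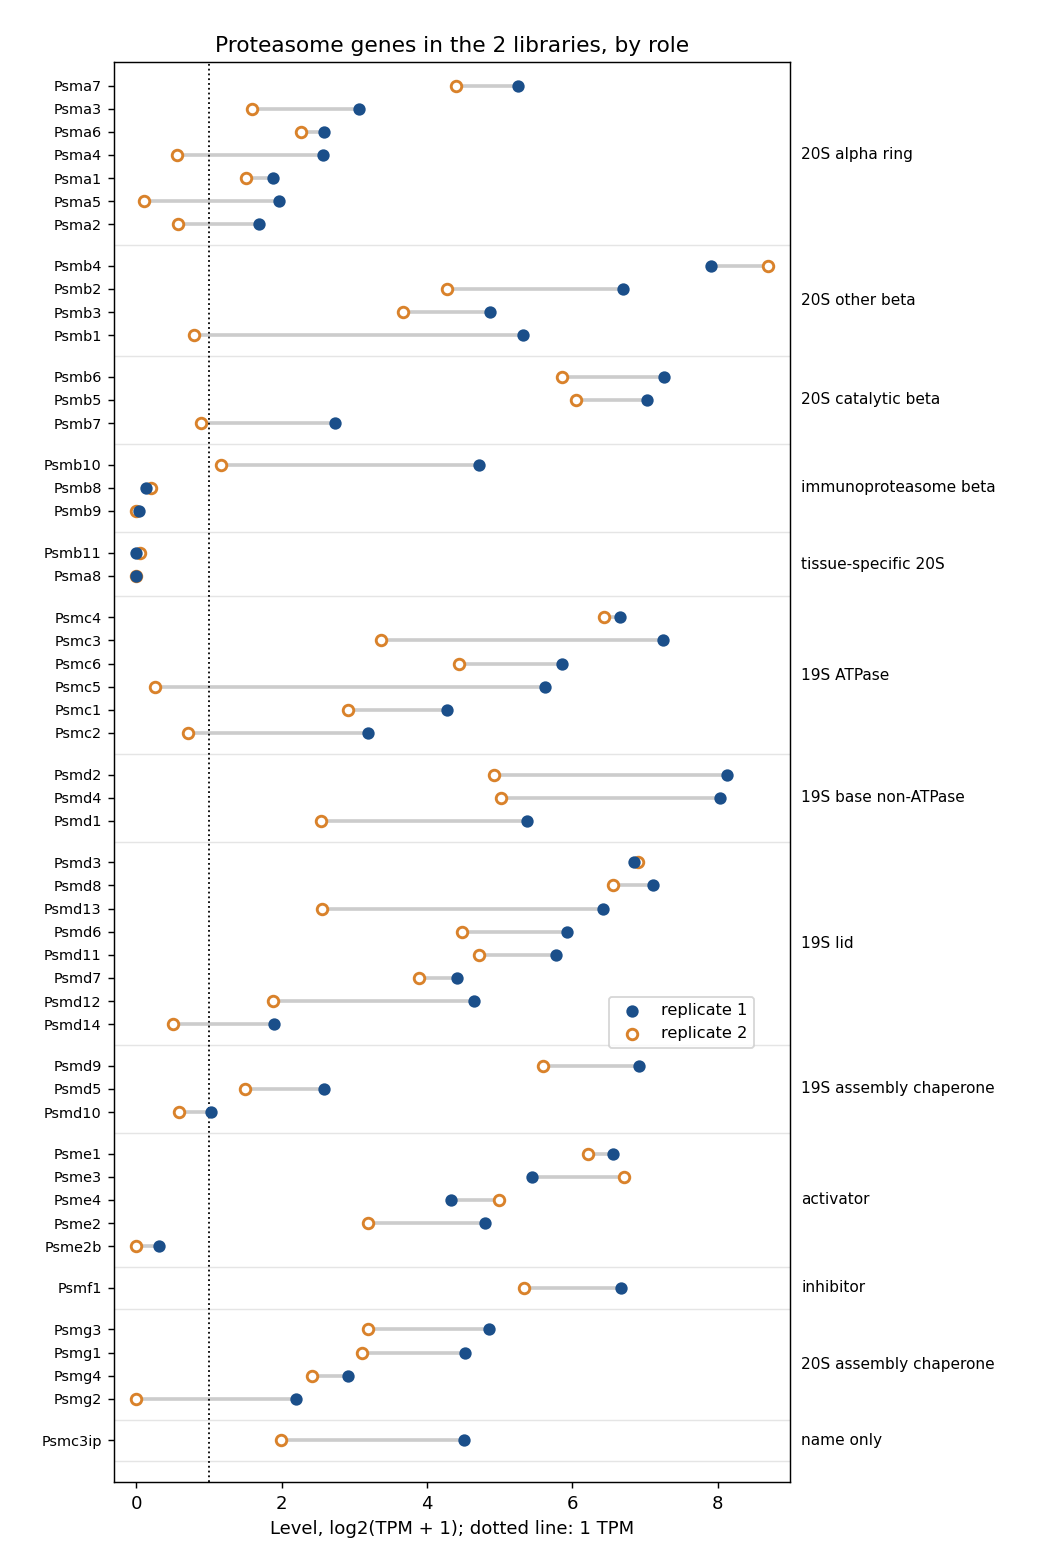
Level of each of the 50 genes as log2(TPM + 1), grouped by role, with replicate 1 as filled and replicate 2 as open circles. Psmb4 is the highest gene by mean in M21, and the alpha ring sits left of most beta subunits. Of the 45 genes with enough counts, 41 lie further right in replicate 1. All protein-coding genes compared were shifted the same way, with a median log2 ratio of 0.32 against 1.39 for the family.

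The alpha ring genes were low for core subunits. Psma7, the highest of the 7, had 37.03 TPM in replicate 1 and 20.04 TPM in replicate 2, on average 28.5 ± 12.01 TPM (SD, n = 2). Psma2 was the lowest by mean in M21, at 2.23 and 0.49 TPM. By mean in M4 the lowest was Psma1, at 1.08 TPM against 3.56 TPM for Psma2. By mean in the table made from the reads it was also Psma1, at 2.60 TPM against 3.02 TPM. Besides Psma7, 3 alpha genes were detected in both libraries: Psma3 at 7.37 and 2.01 TPM, Psma6 at 4.97 and 3.82 TPM, and Psma1 at 2.67 and 1.86 TPM. Psma2, Psma4 at 4.91 and 0.48 TPM, and Psma5 at 2.92 and 0.08 TPM passed 1 TPM in replicate 1 only, on 9, 6 and 1.13 expected counts in replicate 2. The authors' interval for the posterior TPM of Psma4 in replicate 2, 0.715 to 3.57, lay above its value of 0.48, so genes on so few counts cannot be placed against the threshold. All 7 stood higher in replicate 1 in M21. In the rescaled table made from the reads, Psma2 at 5.88 and 7.11 TPM and Psma5 at 4.91 and 8.53 TPM stood lower there.

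The 7 beta subunits of the standard core had medians of 103.2 and 18.4 TPM, against 4.91 and 1.86 TPM for the alpha ring, which is 21.01 times higher in replicate 1 and 9.89 times in replicate 2. The alpha and beta subunits stand in equal numbers in a 20S core. The table made from the reads gave 13.3 and 3.41 times, the M4 annotation 20.7 and 20.5 times, and protein-coding transcripts alone 13.3 and 22.2 times, so the direction held in each table and the size did not. Within the 14 standard core genes the highest stood 107 times over the lowest in replicate 1. In replicate 2 that ratio rested on Psma5, with 1.13 counts.

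Psmb4, the beta7 subunit, had the highest mean of the family in M21, on average 326 ± 123 TPM (SD, n = 2). Its level was 239 TPM in replicate 1 against 412 TPM in replicate 2. The coding Psmb4-201 was at 238 and 251 TPM, and the retained-intron Psmb4-202 at 0 and 162 TPM. By mean in the table made from the reads, Psmb4 had rank 3 in the family. It is 1 of only 4 compared genes that stood higher in replicate 2, also in CPM, but the table made from the reads gave 195 and 88.8 TPM, and 263 and 373 TPM once rescaled over nuclear protein-coding genes. Psmb2, the beta4 subunit, was at 103.2 and 18.4 TPM, and Psmb3, the beta3 subunit, at 28.3 and 11.7 TPM. Psmb1, the beta6 subunit and the lowest of these 4 by mean, had 38.8 TPM in replicate 1 against 0.73 TPM in replicate 2, from 4529 and 14 expected counts. As counts scaled to library size (CPM) this was 63.9 times higher in replicate 1, with a 95% exact interval of 38.05 to 117 that covers counting error only. The same gene was at 56.5 and 1.38 TPM in the M4 table and at 25.9 and 0.752 TPM in the table made from the reads.

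The immunoproteasome genes were low or near 0 except Psmb10. At the beta5 site, which cuts after hydrophobic residues, the immunoproteasome gene Psmb8 was at 0.10 and 0.15 TPM and the constitutive gene Psmb5 at 129 and 65.5 TPM. At the beta1 site, which cuts after acidic residues, Psmb9 was at 0.03 TPM in replicate 1 and 0 in replicate 2, and Psmb6 at 152 and 57.2 TPM. At the beta2 site, which cuts after basic residues, Psmb10 was at 25.2 and 1.25 TPM and Psmb7 at 5.64 and 0.86 TPM. Psmb8 rested on 8 and 2 expected counts, and Psmb9 on 2 and 0. Psmb8 and Psmb9 were the lower genes of their pairs in both libraries, in M21, in M4 and in the table made from the reads. Psmb10 was the higher of its pair in both libraries in M21. With M4 it was so in replicate 1 only, with 8.37 and 0.63 TPM for Psmb10 against 6.92 and 1.61 TPM for Psmb7. The table made from the reads likewise gave 15.0 and 0.592 TPM for Psmb10 against 6.63 and 3.25 TPM for Psmb7.

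**Figure D2:**
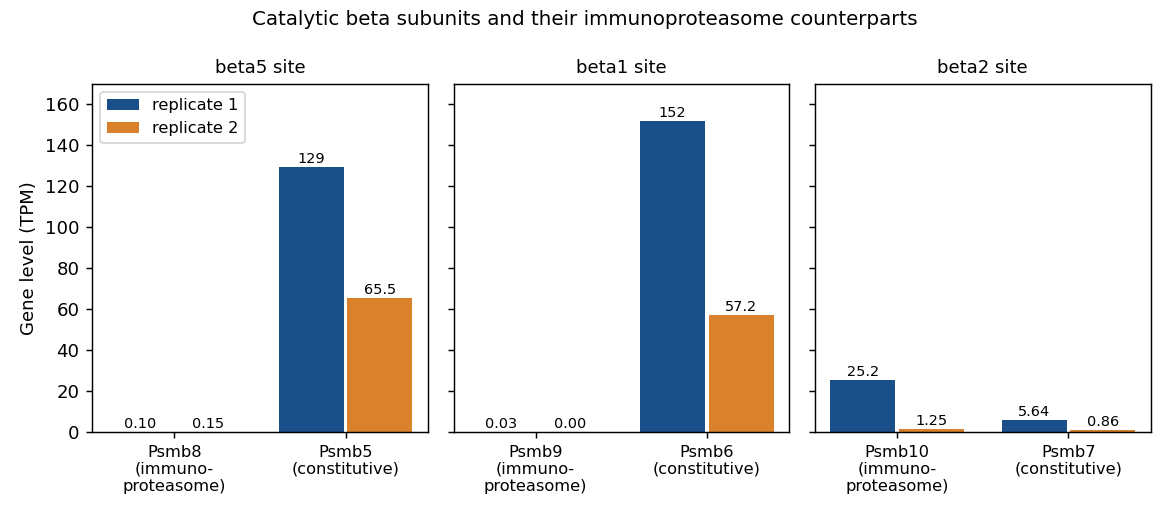
Gene level in TPM of the 3 catalytic sites, with the immunoproteasome gene left of the constitutive gene and replicate 1 left of replicate 2 (bars start at 0, value printed above). Psmb5 and Psmb6 reach 57.2 to 152 TPM while Psmb8 and Psmb9 stay at or under 0.15 TPM, and in this M21 table Psmb10 lies above Psmb7, an order that M4 and the table made from the reads turn round in replicate 2.

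Psmb8, Psmb9 and Psmb10 together made up 8.11% of catalytic subunit TPM in replicate 1 and 1.12% in replicate 2 (mean 4.62% ± 4.94 SD, n = 2). Psmb10 carried nearly all of it: it was 81.7% and 59.2% of the beta2 pair, against 0.0773% and 0.228% for Psmb8 in the beta5 pair and 0.0198% and 0% for Psmb9 in the beta1 pair. Most of the Psmb10 level lay outside its coding transcript. The transcript Psmb10-203, annotated as a processed transcript of 426 bases, held 72.9% of the gene's TPM in replicate 1, while the coding Psmb10-201 was at 1.52 TPM and 0 TPM, under the 5.55 and 0.86 TPM of the coding transcripts of Psmb7. In replicate 2 the retained-intron transcript Psmb10-206 held 100%, on 13 counts. From protein-coding transcripts alone the immunoproteasome share was 0.572% and 0%. Psmb10 overlaps no other coding gene in M21, whereas Psmb9 overlaps Tap1 on chromosome 17, a neighbour that was also near 0.

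A pair of core genes that other tissues use was at or near 0. Psma8, the alpha subunit of the testis, had 0 counts in both libraries, which allows up to 0.0420 CPM in replicate 1 and 0.212 CPM in replicate 2. Psmb11, the beta5 subunit of thymic cortical epithelium, had 0 and 2 counts, or 0 and 0.04 TPM. The germ cell and thymic epithelium markers checked, Ddx4, Sycp3 and Foxn1, were at 0 TPM in both.

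The 6 ATPases of the 19S base had medians of 52.9 and 7.96 TPM. Psmc4 had the highest mean, at 99.9 and 85.7 TPM, on average 92.8 ± 10.0 TPM (SD, n = 2), and its libraries differed 1.17-fold. Psmc3 was at 150 and 9.37 TPM, a 16.1-fold difference. Psmc5 had 48.5 TPM in replicate 1 against 0.20 TPM in replicate 2, on 4104 and 3 expected counts, a ratio of 270 in CPM with a 95% exact interval of 92.4 to 1311. The table made from the reads gave Psmc5 35.4 and 1.55 TPM. Psmc2, the lowest ATPase gene by mean in M21 and in the table made from the reads, was at 8.12 and 0.64 TPM. Psmc1 was at 18.4 and 6.55 TPM, and Psmc6 at 57.2 and 20.8 TPM. In M4 the lowest was Psmc6, at 2.57 and 0.12 TPM. Its coding transcript in M21 was at 1.02 and 0 TPM. The 6 ATPases form 1 hexameric ring with 1 copy of each, yet their M21 levels spanned 18.5 times in replicate 1.

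Of the other base subunits, Psmd2, a scaffold that binds ubiquitin-like domains, was at 278 and 29.3 TPM, the highest gene of the family in replicate 1 in M21 but not in M4, where it was at 79.6 and 32.4 TPM. Psmd4, a ubiquitin receptor, was at 262 and 31.6 TPM. Psmd1, the other large scaffold and the lowest of these 3, was at 40.4 and 4.84 TPM. In M21 TPM the 3 were 9.49-fold, 8.30-fold and 8.34-fold higher in replicate 1. For Psmd2 the ratio was 3.12 in CPM, and its M21 value in replicate 1 lay mostly on a transcript of 441 bases. The table made from the reads, rescaled over nuclear protein-coding genes, gave 438 and 199.97 TPM for Psmd2, 356 and 159 TPM for Psmd4, and 54.9 and 28.2 TPM for Psmd1.

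The 8 lid genes had medians of 56.8 and 17.5 TPM, and 7 of them were detected. Psmd3 was the highest by mean, at 114 and 119 TPM, on average 117 ± 3.01 TPM (SD, n = 2). In M21 it was the steadiest gene of the family among those above 100 TPM. The table made from the reads, rescaled over nuclear protein-coding genes, gave 145 and 220 TPM for Psmd3. For Psmd8 it gave 147 and 117 TPM, which lie closer together. Psmd8 was at 137 and 93.4 TPM, Psmd6 at 59.8 and 21.3 TPM, Psmd11 at 53.8 and 25.2 TPM, and Psmd7 at 20.4 and 13.8 TPM. Psmd13 was at 84.7 and 4.87 TPM, 17.4-fold higher in replicate 1, and Psmd12 at 24.0 and 2.69 TPM. Psmd14, the deubiquitinase of the lid, was the lowest, with 2.71 TPM in replicate 1 against 0.42 TPM in replicate 2, from 263 and 3 counts, a CPM ratio of 17.3 with an interval of 5.86 to 84.5. The table made from the reads gave 3.81 and 1.26 TPM, and 5.14 and 5.28 TPM once rescaled, which turns the direction.

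The assembly factors were mostly modest. Among the 19S chaperones Psmd9 was at 120 and 47.6 TPM, Psmd5 at 5 and 1.83 TPM, and Psmd10, also known as gankyrin, at 1.04 and 0.50 TPM. The 20S chaperones Psmg3, Psmg1 and Psmg4 were at 27.8 and 8.16 TPM, 22.1 and 7.65 TPM, and 6.51 and 4.34 TPM. Psmg2, the partner of Psmg1, had 3.60 TPM in replicate 1 and 0 in replicate 2, from 227 and 0 counts. That is at least 14.9-fold higher in replicate 1 in CPM, against a floor of 3 counts in replicate 2. The table made from the reads did not hold that bound, with 3.96 and 1.17 TPM, or 5.34 and 4.93 TPM once rescaled.

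The activators shared no direction between the libraries. Psme1 and Psme2 encode the PA28 alpha and beta subunits, which interferon raises in many cells. Psme1, the highest activator by mean, was at 93.3 and 73.0 TPM, on average 83.2 ± 14.3 TPM (SD, n = 2), and Psme2 at 26.8 and 8.12 TPM. Psme3, the nuclear PA28 gamma, had 42.5 TPM in replicate 1 against 104 TPM in replicate 2. It is the only compared gene over 2-fold lower in replicate 1, a call that CPM scaling, at 101 and 156, did not give. The table made from the reads gave 75.0 and 89.4 TPM for Psme3, and 101 and 375 TPM once rescaled over nuclear protein-coding genes. Psme4, or PA200, was at 19.2 and 30.8 TPM. Psme2b, a near copy of Psme2, was at 0.24 and 0 TPM, and both are alike at 99.4% of 794 aligned bases, so reads can be split between them. Psmf1, an inhibitor that competes with the activators, was at 101 and 39.2 TPM. Psmc3ip, no proteasome subunit, was at 21.8 and 2.96 TPM.

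In the comparison of the libraries, 45 genes had a mean expected count of 50 or more. Of these, 32 were over 2-fold higher in replicate 1 (71.1%), against 35.2% of the 8526 protein-coding genes that passed the same filter. Only 1 was over 2-fold lower, against 15.1% of those genes. The median log2 ratio of TPM + 1 was 1.39 over the 45 genes and 0.32 over all, so the family stood 1.07 above the shift that the table as a whole showed. At higher cuts the share of all genes was not counted, so the next counts have no background. Psma4, Psma5, Psmc5 and Psmg2 rested on 6, 1.13, 3 and 0 expected counts in replicate 2. There were 18 genes over 4-fold and 9 over 10-fold higher in replicate 1, with those genes among the 9. The 5 furthest apart in this direction were Psmc5, Psmb1, Psmd13, Psmc3 and Psmb10, and at the other end stood Psme3, Psmb4, Psme4, Psmd3 and Psmc4, whose log2 ratios ran from -1.27 to 0.22. With 1 library against 1, these are descriptions of the libraries and carry no p-value. In the table made from the reads, rescaled over nuclear protein-coding genes, 17 genes were over 2-fold higher and 1 lower, against 21.5% higher among all, and the median log2 ratio was 0.72 against 0.12 for all, a gap of 0.59. The 2 genes furthest apart in M21 had less distant values in that table, 47.9 and 6.52 TPM for Psmc5 and 35.0 and 3.16 TPM for Psmb1.

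**Figure D3:**
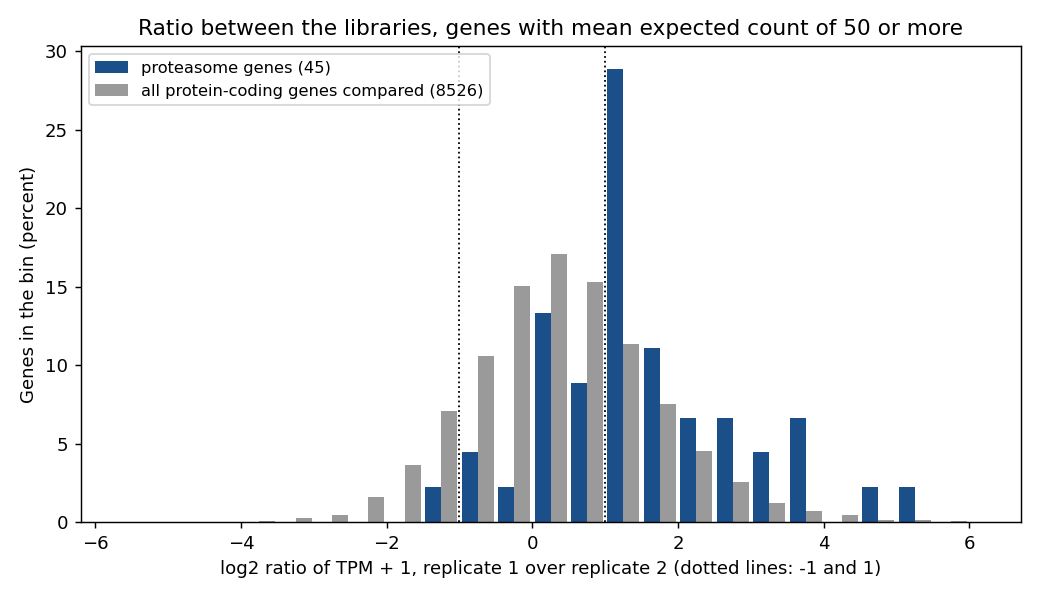
Percent of genes in bins of 0.5 of the log2 ratio of TPM + 1, replicate 1 over replicate 2, for the 45 family genes (blue) and all 8526 protein-coding genes compared (grey). The family's bars lie to the right of the grey ones, with a median of 1.39 against 0.32.

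The libraries differed in depth, and across all genes compared the log2 ratio ran weakly against GC content. The part of either in the family's difference was not tested. Across the 8526 genes, Spearman's rho between GC content and the log2 ratio was -0.18, a description over genes of 1 pair of libraries, and over the 45 family genes it was -0.055. With all genes split into 4 equal bins of GC content, 10 of 13 family genes in the lowest bin were over 2-fold higher in replicate 1, against 44.3% of all genes there. The counts were 14 of 15 against 42.0% in the next bin, 7 of 13 against 36.2% in the one after, and 1 of 4 against 18.2% in the bin with the highest GC content. Across the 50 genes, the levels of both libraries ranked alike, with a Spearman's rho of 0.85.

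The transcript tables put much of several genes on transcripts that encode no protein. Of the 35 detected genes, 9 in replicate 1 had under 50% of their TPM in protein-coding transcripts, against 26.6% of all detected protein-coding genes, and 11 in replicate 2, against 31.5%. The transcript with the most TPM differed between the libraries in 12 of 35, against 33.5%. These shares are near the background and say nothing particular of the family. Psmb2 had 36.7% and 41.2% of its TPM in its coding transcript, the rest in Psmb2-202, a processed transcript of 547 bases. Psmf1 had 99.1% in coding transcripts in replicate 1 and 29.2% in replicate 2, where the retained-intron Psmf1-205 led. Psmd2 rested for 79.8% on Psmd2-209 in replicate 1, a transcript of 441 bases annotated as coding, with 222 TPM, and on the full-length Psmd2-201 for 86.2% in replicate 2. The full-length Psmd2-201 alone had 50.9 TPM in replicate 1 against 25.2 TPM in replicate 2, closer together than the gene totals.

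**Figure D4:**
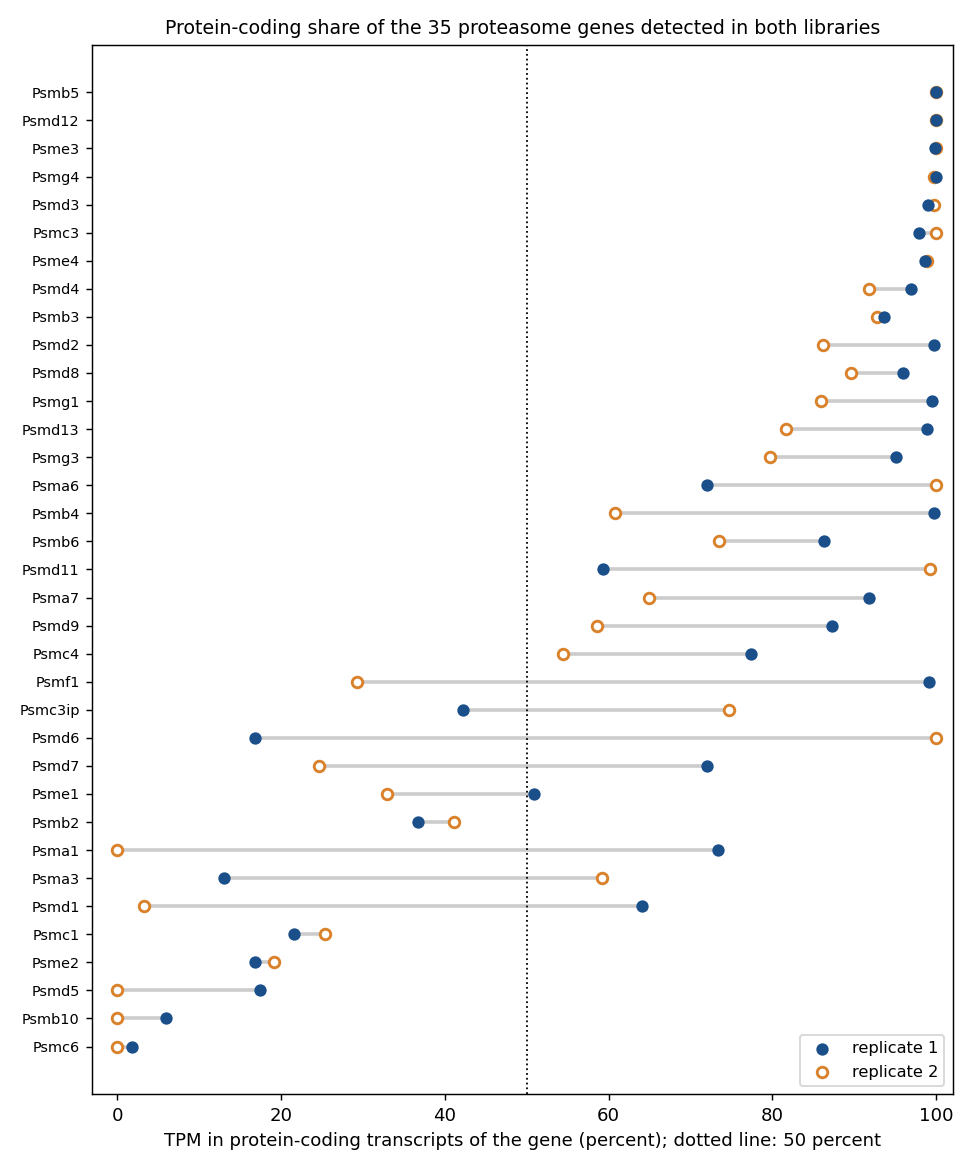
Percent of each gene's TPM in protein-coding transcripts for the 35 genes detected in both libraries, replicate 1 filled and replicate 2 open. Psmb5 and Psmd12 sit at 100% in both, while Psmc6, Psmb10, Psmd5, Psme2 and Psmc1 sit under 30% in both.

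Of the other genes named for their transcripts, Psmb5 had Psmb5-201 as main transcript with 51.7% and 71.7%, and every transcript with TPM was coding. Psmc4 had Psmc4-201 with 77.4% in replicate 1 and Psmc4-206 with 49.7% in replicate 2, both coding. Psmc4-201 alone had 77.4 TPM in replicate 1 against 4.12 TPM in replicate 2, so the close gene totals joined unlike transcripts. Psmd9, Psme1 and Psme3 kept 1 main transcript in both libraries, with 57.9% for Psmd9-204, 32.9% for Psme1-208 and 58.2% for Psme3-201 in replicate 2.

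The annotation release mattered for 8 of the 50 genes, whose mean TPM differed over 2-fold between M21 and the older M4. The share of all protein-coding genes beyond that cut was not counted, so the 8 say nothing particular of the family. Psmc6 was 29.0 times higher in M21. Its TPM there lay mostly on Psmc6-204, a processed transcript of 830 bases with 81.3% in replicate 1 and 93.8% in replicate 2, and its coding transcript Psmc6-201 was at 1.02 and 0 TPM. Psmb10 was 2.94, Psmd2 2.74, Psmc1 2.70, Psma1 2.10 and Psmd9 2.08 times higher in M21. Psma2 was at 0.38 and Psmc4 at 0.49 of their M4 means. In the table made from the reads the order of the 50 genes was close to that of the main table, with a Spearman's rho of 0.97, and the ranks that moved most were those of Psmc1, up 9 places, Psme3, up 8, Psma2, up 7, and Psmd5, down 7.

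**Figure D5:**
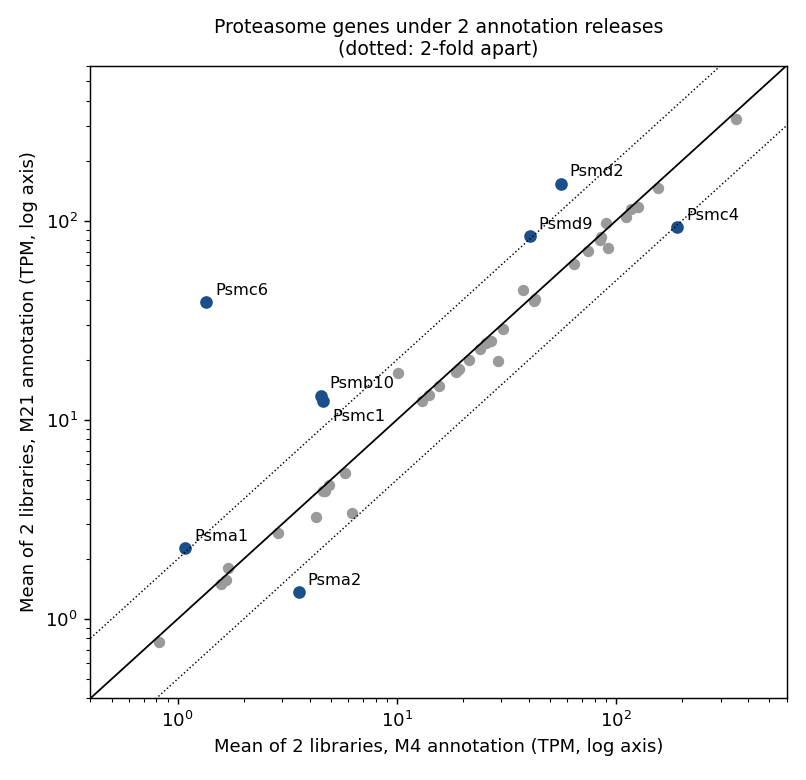
Mean TPM of both libraries in M21 against M4, on log axes, for the 45 genes with a mean of 0.5 TPM or more in both releases; the solid line marks equality and the dotted lines 2-fold. The 8 named genes lie beyond the dotted lines, Psmc6 furthest.

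Processed pseudogenes can take or give reads to these genes. A search of M21 transcripts found 36 pseudogene copies of 15 of the genes, 12 of them copies of 4 alpha subunits. Together the copies held 4.59 TPM in replicate 1 and 0.87 TPM in replicate 2. In the M21 gene table only Gm3375, a copy of Psmb5 alike at 98.9% of aligned bases, passed 1 TPM, with 3.61 TPM in replicate 1 against 0.47 TPM in replicate 2. In the table made from the reads the Psma2 copy Gm48216 was at 0.171 and 2.41 TPM, against 4.35 and 1.69 TPM for Psma2. In the M21 gene table, adding the copies left the alpha ring median at 4.91 and 1.86 TPM. In all, 13 genes overlap another protein-coding gene in M21, among them Psmb7 with Nek6, Psmd13 with Sirt3 and Psmc3ip with Mlx, and it is not given whether counting used strand.

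Of 30 listed genes for ubiquitin, its activation, shuttling and proteasome regulation, 29 were found in the table and all 29 were detected, against 33.3% of all protein-coding genes. Of these, 12 were over 2-fold higher in replicate 1, against 35.2% of all genes compared, and 8 over 2-fold lower, against 15.1%, and their log2 ratios had a median of 0.04, against 0.32 for all genes. Adrm1, a ubiquitin receptor of the 19S base, was at 379 and 1662 TPM, lower in replicate 1 in M21. Ubb, a polyubiquitin gene, was at 1818 and 179 TPM, higher in replicate 1.

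The lowest of the pathway list were Zfand2a, an inducible proteasome-binding protein, at 3.17 and 1.16 TPM, Ube3c, a ubiquitin ligase of the proteasome, at 4.33 and 5.24 TPM, and Pomp, the maturation factor of the 20S core, at 8.90 and 1.41 TPM. Sem1, a small lid subunit without a Psm name, was at 43.0 and 3.87 TPM, and Nfe2l1 at 33.2 and 11.6 TPM. Adrm1 and Sem1 are 19S subunits too, and in M21 they lay in opposite directions, Adrm1 lower and Sem1 higher in replicate 1. The table made from the reads, without rescaling, gave 296 and 90.01 TPM for Adrm1, so there both genes stood higher in replicate 1. Most genes compared stood higher in replicate 1 in that table, and rescaled values are not given here for these genes.

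Of 14 genes of antigen processing, which the immunoproteasome serves, 8 were detected, against 33.3% of all protein-coding genes. The 14 lay between 0 and 141 TPM in replicate 1 and between 0 and 771 TPM in replicate 2. Tap1, the neighbour of Psmb9, was at 0.23 and 0 TPM, and its partner Tap2 at 31.5 and 19.5 TPM. B2m, the light chain of class I molecules, was at 36.01 and 20.1 TPM. The interferon-response regulators Irf1 and Nlrc5 were at 0.02 and 0 TPM and at 0 in both.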

How the data were processed

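Polyadenylated RNA of 2 libraries of 1 group was analysed. The members and gene lists were chosen with earlier results of these data known, and no comparison between conditions was possible. Per the deposited descriptions, reads were mapped on mm10. Gene and transcript tables for GENCODE M21 and M4 came from a transcriptome alignment, with column names as RSEM writes them, and a further M21 transcript table was made from the reads, with column names as kallisto writes them. Neither aligner nor quantifier is named in the sources used here.

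Each deposited expected count is an estimate, by the authors, of fragments from a gene or transcript, not normalized. The authors' TPM values are scaled to a fixed total over each table. A deposited percent column states how much of a gene's TPM each transcript holds; shares were recomputed here from TPM. The authors' interval bounds, per the file headers, give a lower and upper signal limit of the posterior TPM, at a level not given, and the deposited effective length is in bases.

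The main values are from the M21 gene table. Detection was set at 1 TPM in both libraries, and log2 values used a pseudocount of 1. Genes over 2-fold apart in TPM were counted at a mean expected count of 50 or more. Genes at 0 were set against 3 counts. Intervals are exact at 95% and, like floors, cover counting error only. Total expected counts were 71485619 and 14121747, so replicate 2 is less precise. Pseudogene copies were found with BLAST+ 2.17.0 (identity of 85% or more over 400 bases or more and 50% of the copy). Promoters are from RefSeq. Code that counts genes apart was tested on simulated data.

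Named genes were the catalytic subunits, the highest and lowest gene of each role, undetected genes, the 5 furthest apart in each direction, those that moved between tables, the extremes of the pathway list, and 8 genes for transcripts, to which Psmb10 and Psmc6 and genes whose values show a role's range were added after their values were seen. A few list genes are not reported here. Alternatives included M4 annotation, the reads-based table, rescaled and posterior mean TPM, other thresholds and pseudocounts, CPM, edgeR 4.0.16 TMM scaling and DESeq2 1.42.0 size factors on rounded counts, and each library alone. Coding transcripts alone, pseudogene copies added and the list without Psmc3ip were added after seeing the data. Python 3.11.15, pandas 2.3.3, numpy 2.4.6, scipy 1.17.1, matplotlib 3.10.9 and R 4.3.3 were used.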

Additional observations from a re-analysis of the deposited data

How the results depend on the processing

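No paired analysis was possible because the study held 1 group. The count of genes over 2-fold apart was 33 in the main table. It was 18 in the table made from reads once rescaled over nuclear protein-coding genes, and between 27 and 42 under the other alternatives. The cause was not tested. Most of these genes stood higher in replicate 1 under each alternative. The 42 came from the table made from reads without rescaling. There 93.3% of the family and 76.9% of all genes compared were over 2-fold higher in replicate 1. Once rescaled, the shares were 37.8% and 21.5%. The count detected was 35, between 25 and 45 under the alternatives, with 35 in replicate 2 alone and 45 in replicate 1 alone. The median level of log2(TPM + 1) was 3.74, with 2.73 and 4.75 in the single libraries. The median log2 ratio of 1.39 ran from 0.72 to 2.13, against 0.12 and 1.32 over all genes under the same settings. The immunoproteasome share, a mean of 4.62%, was 1.12% in replicate 2 alone and 8.11% in replicate 1 alone, 1.76% with M4 and 0.286% from protein-coding transcripts only (0.572% in replicate 1 and 0% in replicate 2). The pathway count was 29, between 24 and 29. Counts of 3 or fewer in replicate 2 limit Psma5, Psmc5, Psmd14 and Psmg2. Without Psmc3ip, 34 genes were detected.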
